A study of Mus musculus with 8 samples.

Results

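The genes described here are 37 genes of cholesterol and fatty acid synthesis, read on one-colour Affymetrix arrays of mouse embryonic stem (ES) cells. They were taken by symbol from a list of sterol synthesis, sterol sensing, sterol transport and fatty acid genes. A gene is represented by the brightest of the probe sets that carry its symbol alone. By this rule 36 of the 37 genes were measured, out of 18193 genes on the array, and Acat2 had no probe set with a single symbol in the platform annotation. The 36 genes are 17 enzymes of sterol synthesis, 5 genes of sterol sensing, 5 of sterol transport and 9 of fatty acid synthesis. Not every gene of these pathways is on the list.

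All 8 samples came from ES cells labelled with the strain Oct4-Gip at passage 25, transfected by lipofection and collected on day 4. Group 1 is 4 samples given an esiRNA against Ctr9, a subunit of the Paf1 complex that accompanies RNA polymerase II. Group 2 is 4 control samples given an esiRNA against luciferase. An esiRNA is a mixture of short double-stranded RNAs cut from a longer one. Nothing in the labels says that samples of a group were grown apart, and the p-values therefore cover just the variation among these arrays, part of which may be technical.

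Cells make cholesterol from acetyl-CoA through mevalonate, farnesyl diphosphate, squalene and lanosterol, and the enzymes of the route are largely controlled together by the transcription factors SREBP1 and SREBP2. When membrane sterol is low, the escort protein Scap carries the SREBP precursors from the endoplasmic reticulum to the Golgi, where they are cut and released, and Insig proteins hold Scap back when sterol is plentiful. Genes that export sterol, such as Abca1, are instead induced by the LXR nuclear receptors, which bind oxysterols.

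Most enzymes of sterol synthesis were higher with Ctr9 esiRNA, by modest sizes. Of the 17 measured, 12 rose, 1 fell and 4 did not pass the test (limma, Benjamini-Hochberg adjusted over 45037 probe sets, threshold 0.05). Over all genes tested, 15.8% were called higher and 15.0% lower. Those shares include dim genes, while all 36 genes here lay above the median of all probe sets. A fit on probe sets above that median alone called 11287, against 11209 in the fit on all 45037. By definition that fit held about 50% of the probe sets, so bright ones were called at a higher share than all probe sets. The shares over all genes are thus too low a background for these 36 genes. A share for genes of like signal was not computed. The median log2 difference of the 17 was 0.48, against 0.0036 over all 18193 genes. No enzyme of the route reached a 2-fold difference. The largest rise was that of Dhcr7, at 1.88-fold, and the only fall was that of Ebp, at 0.827-fold. For 11 of the 17 all Ctr9 esiRNA values lay above all control values, as for 18.8% of all genes, and for Ebp all lay below, as for 17.8%. Outside the route, the cholesterol exporter gene Abca1 fell to 0.431-fold, the largest difference among the 36 genes. The fatty acid genes were divided, with 5 of 9 higher, among them the desaturase genes Scd2 (1.71-fold) and Fads2 (1.60-fold), and 2 lower, Acss2 (0.666-fold) and Elovl6 (0.698-fold). SREBP genes themselves did not pass on their brightest probe sets.

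The arrays were alike in scale, with medians from 5.74 to 5.76 on the log2 scale. Ctr9 itself differed by -0.09 on the brightest of its 5 probe sets (p = 0.0857 in an exact permutation test, two-sided, that cannot go below 0.0286 with groups of 4). Its next probe sets fell by 0.15 and 0.18 without overlap of the groups (limma adjusted p = 0.0398 and 0.0279). A dim one rose by 0.29 (limma adjusted p = 0.0228). The brighter probe sets of the target thus all read lower, by small amounts, and the dimmer ones read higher. Its level is no firm check of the labels, which alone define the groups. Of the 5 ES cell markers Pou5f1, Nanog, Sox2, Zfp42 and Esrrb, 4 fell, and their summed linear signal was 44413 to 45296 in the luciferase arrays and 34564 to 35928 in the Ctr9 esiRNA arrays. The 8 fibroblast markers summed to 346 to 372 and 398 to 417, with 2 higher, and 4 of the 8 (Col1a1, Col3a1, Lum and Postn) lay below the median of all probe sets. The 9 visceral endoderm markers summed to 597 to 639 and 623 to 667, ranges that overlap. Of the 9, 1 was higher and 5 lay below that median. Over all genes, 15.8% were called higher and 15.0% lower. What the marker differences contribute to the differences below was not tested. In these bulk samples a change in the share of cells of a type and a change in RNA per cell cannot be told apart.

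Promoter sequences are shown here for Hmgcs1, which was chosen by name and not by its rank, and for genes at both ends of the range of differences. RefSeq promoters of build GRCm38.p6 were available for 28 of the 37 genes. The genes without one were mostly genes that rose: Fdps, Fdft1, Sqle, Stard4, Scd1, Scd2 and Fads1. Npc1 and Abcg1, which did not pass, also had none. In the 250 bases before the start, the CCAAT box (letters CCAAT, the binding site of NF-Y, a factor that works beside SREBPs), searched on both strands, was found in 21 of the 28 genes (75.0%), against 37.5% of 27025 genes in the same table. It was held by 11 of 13 genes that rose, 3 of 5 that fell and 7 of 9 that did not pass, Acat2 being the one left unmeasured. Matches may overlap, as a pair does in Fasn. A strict form of the sterol regulatory element to which SREBPs bind (letters TCACNCCAC, both strands) was found in Hmgcs1 alone of the 28, against 1.22% of genes. It was thus held by 1 of the 13 genes that rose. The E-box CACGTG, which reads the same on both strands, was found in 6 of the 28 and in 6.86% of genes. Below are the 250 bases before the start, 5′ to 3′ on the strand of the gene, of Hmgcs1, of the 2 largest rises and of the 3 largest falls among genes with 1 promoter in the table. Capitals mark matches to the sterol regulatory element or the CCAAT box on either strand. Hmgcs1 lies at chr13:119690101-119690350 on the plus strand, Sc5d at chr9:42264301-42264550 on the minus strand, Idi1 at chr13:8885356-8885605 on the plus strand, Abca1 at chr4:53159896-53160145 on the minus strand, Acss2 at chr2:155517793-155518042 on the plus strand and Elovl6 at chr3:129532136-129532385 on the plus strand.
Hmgcs1: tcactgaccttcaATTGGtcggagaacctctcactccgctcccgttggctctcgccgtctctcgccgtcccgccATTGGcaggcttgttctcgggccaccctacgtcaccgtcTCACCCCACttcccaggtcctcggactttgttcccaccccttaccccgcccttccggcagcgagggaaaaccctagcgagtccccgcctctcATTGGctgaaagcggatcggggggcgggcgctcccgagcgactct
Sc5d: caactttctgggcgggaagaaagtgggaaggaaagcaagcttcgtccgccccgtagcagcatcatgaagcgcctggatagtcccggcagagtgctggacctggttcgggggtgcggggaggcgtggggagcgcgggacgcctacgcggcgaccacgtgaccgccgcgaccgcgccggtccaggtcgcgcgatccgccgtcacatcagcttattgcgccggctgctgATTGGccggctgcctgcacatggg
Idi1: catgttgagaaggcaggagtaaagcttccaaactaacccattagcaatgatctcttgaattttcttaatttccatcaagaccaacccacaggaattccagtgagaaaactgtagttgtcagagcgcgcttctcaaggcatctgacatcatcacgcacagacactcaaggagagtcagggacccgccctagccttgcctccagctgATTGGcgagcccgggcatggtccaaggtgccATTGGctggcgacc
Abca1: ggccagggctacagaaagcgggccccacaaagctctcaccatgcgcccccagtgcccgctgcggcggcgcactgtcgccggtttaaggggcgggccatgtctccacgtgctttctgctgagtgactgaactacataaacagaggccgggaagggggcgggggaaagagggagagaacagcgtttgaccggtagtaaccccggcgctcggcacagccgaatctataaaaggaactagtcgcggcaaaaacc
Acss2: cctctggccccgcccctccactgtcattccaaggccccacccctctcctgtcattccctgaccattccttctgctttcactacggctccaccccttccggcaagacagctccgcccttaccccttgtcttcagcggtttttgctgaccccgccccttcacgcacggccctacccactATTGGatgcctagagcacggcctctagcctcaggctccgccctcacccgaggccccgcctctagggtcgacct
Elovl6: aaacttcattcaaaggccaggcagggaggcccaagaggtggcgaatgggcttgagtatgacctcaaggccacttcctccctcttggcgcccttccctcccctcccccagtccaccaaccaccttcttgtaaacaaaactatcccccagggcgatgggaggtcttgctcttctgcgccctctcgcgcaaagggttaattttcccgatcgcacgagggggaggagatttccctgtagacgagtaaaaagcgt
The Hmgcs1 window holds the sterol element from base -137 to base -129 before the start and 3 CCAAT boxes. Sc5d and Acss2 hold 1 CCAAT box each and Idi1 holds 2, while the windows of Abca1 and Elovl6 hold neither motif. A match is a match of letters, and these arrays measure no binding.

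In the first stage, from acetyl-CoA units to farnesyl diphosphate, 5 of 6 enzymes rose and none fell. The counts by stage stand beside 15.8% of all genes called higher and 15.0% lower, dim ones included. Hmgcs1 encodes the cytosolic synthase that makes HMG-CoA. Its brightest probe set read 11.48, 11.52, 11.26 and 11.30 with luciferase esiRNA and 12.11, 11.94, 11.86 and 11.97 with Ctr9 esiRNA (log2 signal, replicates 1 to 4). The groups did not overlap, and the difference was 0.58 (SE 0.076, 1.50-fold, limma adjusted p = 0.000341). The other 4 Hmgcs1 probe sets also rose, those with strong signal by 0.56 to 0.64 and a dim one by 0.24. Idi1, the isomerase that turns isopentenyl diphosphate into its reactive isomer, read 10.13, 10.12, 9.96 and 10.04 with luciferase esiRNA and 10.90, 10.74, 10.79 and 10.82 with Ctr9 esiRNA. Its groups were far apart relative to their spread, and the difference was 0.75 (SE 0.057, limma adjusted p = 8.8e-06), with 0.94 on its second probe set. Fdps, which makes farnesyl diphosphate, went from 11.24 ± 0.045 to 11.83 ± 0.058 (SD, n = 4 each), a 1.51-fold rise. Its other probe set lay near the bottom of the array at 3.28 and differed by -0.09.

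The 3 enzymes from mevalonate to isopentenyl diphosphate differed by at most 0.21. Mvk, mevalonate kinase, rose by 0.20 (SE 0.046, limma adjusted p = 0.0102) on its brightest probe set and by 0.18 on the other. Pmvk, phosphomevalonate kinase, read 8.76, 8.86, 8.70 and 8.70 with luciferase esiRNA and 8.85, 8.97, 9.04 and 9.00 with Ctr9 esiRNA. Its groups overlapped by a single pair of values, replicate 2 of the controls and replicate 1 of the Ctr9 esiRNA arrays, and the rise of 0.21 (SE 0.059) had a limma adjusted p of 0.0261. That call ended without luciferase replicate 1 (adjusted p = 0.0547), 3 (0.0695) or 4 (0.0664), without Ctr9 esiRNA replicate 2 (0.0570), 3 (0.0723) or 4 (0.0677), with the replicate number as a block (0.0574) and with luciferase replicates 3 and 4 both left out (0.188). Mvd, the decarboxylase that ends this stretch, differed by 0.04 (95% interval -0.06 to 0.13) and did not pass, although its second, similarly bright probe set rose by 0.16 (limma adjusted p = 0.0247).

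All 3 enzymes between farnesyl diphosphate and lanosterol rose on their brightest probe sets. Fdft1 encodes squalene synthase, the first step committed to sterols, and rose from 10.53 ± 0.058 to 10.89 ± 0.050 (SD, n = 4 each), a difference of 0.37. A second bright Fdft1 probe set rose by 0.33, and the remaining pair, at 6.05 and 5.73 with luciferase esiRNA, did not pass. Sqle encodes squalene epoxidase, a rate-limiting oxygen-dependent step. Its single probe set read 9.76, 9.70, 9.73 and 9.67 with luciferase esiRNA and 10.51, 10.43, 10.35 and 10.44 with Ctr9 esiRNA. The groups did not overlap, with a difference of 0.72 (SE 0.049, 1.64-fold, limma adjusted p = 4.87e-06). Lss, which closes the rings to give lanosterol, was the one member whose probe sets passed in opposite directions. The brightest Lss probe set rose by 0.51 (SE 0.061), the next, at 7.44 with luciferase esiRNA, fell by 0.28 (limma adjusted p = 0.0232, SE 0.078). The dimmest differed by 0.17 and did not pass. Their mean rose by 0.13 (limma adjusted p = 0.0424). Both the direction and the size of the Lss difference thus rest on the probe set taken.

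After lanosterol, the route was uneven, with 4 of 8 enzymes higher, 1 lower and 3 not past the test. Cyp51, the lanosterol demethylase, read 8.68, 8.62, 8.56 and 8.61 with luciferase esiRNA and 9.38, 9.34, 9.25 and 9.35 with Ctr9 esiRNA. It rose by 0.71 (SE 0.050, limma adjusted p = 5.12e-06), and its second probe set rose by 0.79, while the remaining dim one differed by -0.07 and did not pass. Msmo1, the methylsterol oxidase, rose from 10.04 ± 0.092 to 10.52 ± 0.050 (SD, n = 4 each), or 1.39-fold, and its dim probe set differed by 0.16 without passing. Sc5d, a sterol desaturase, read 7.98, 8.17, 7.85 and 7.83 with luciferase esiRNA and 8.80, 8.70, 8.66 and 8.75 with Ctr9 esiRNA. Its groups were well apart, and it rose by 0.77 (SE 0.077, limma adjusted p = 5.47e-05), whereas its dimmer probe sets differed by -0.10 and 0.16 and did not pass. Dhcr7 encodes a reductase of a ring double bond on the way to cholesterol. It read 9.08, 8.86, 8.81 and 8.93 with luciferase esiRNA and 9.91, 9.85, 9.69 and 9.87 with Ctr9 esiRNA. The lowest Ctr9 esiRNA value stood above the highest control value, and the rise was 0.91 (SE 0.071, limma adjusted p = 1.07e-05). Ebp, the sterol isomerase that precedes Sc5d and Dhcr7 in the route, went the other way. It read 9.53, 9.49, 9.57 and 9.58 with luciferase esiRNA and 9.28, 9.17, 9.33 and 9.29 with Ctr9 esiRNA, again without overlap, and fell by 0.27 (SE 0.050, limma adjusted p = 0.00252). Its call held under all 18 alternatives run for single genes.

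The 3 enzymes of this stage that did not pass had differences from -0.11 to 0.07. Tm7sf2, a sterol reductase, differed by -0.11 (95% interval -0.24 to 0.02). Nsdhl, a sterol dehydrogenase, differed by 0.04 (-0.06 to 0.14), and Hsd17b7, the ketoreductase that acts with it, by 0.07 (-0.08 to 0.21). The intervals of Nsdhl and Hsd17b7 lie below those of Cyp51 (0.60 to 0.82) and Dhcr7 (0.75 to 1.07), though the differences between genes were not tested. A dim Hsd17b7 probe set rose by 0.29 (limma adjusted p = 0.00595), and the mean of all 4 rose by 0.12 (limma adjusted p = 0.0372).

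**Figure D1:**
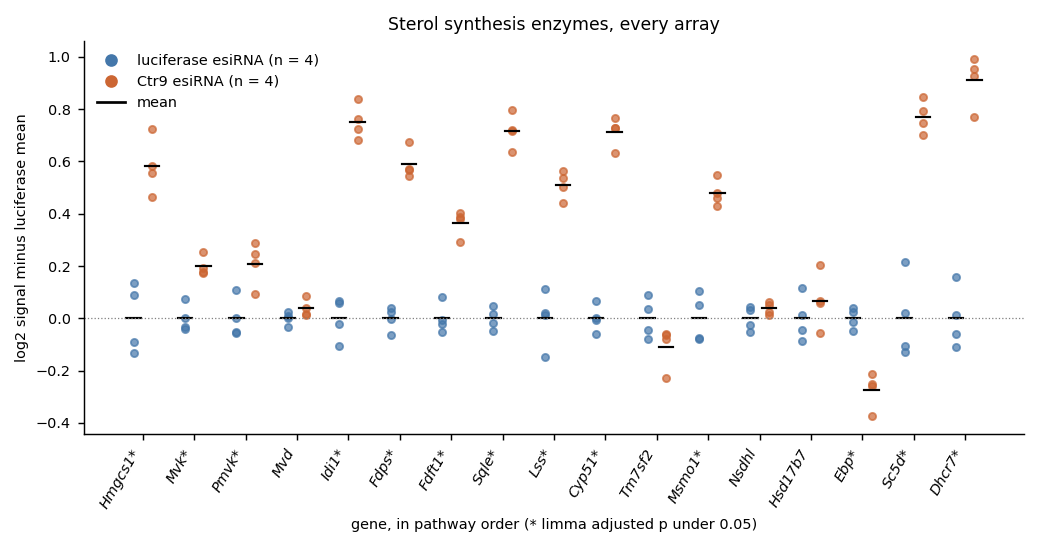
Log2 signal of 17 sterol synthesis enzymes in every array, less the mean of the luciferase arrays of that gene (y axis), with genes in pathway order (x axis), 1 point per array and a bar for each group mean. The Ctr9 esiRNA points sit clear above the controls for 11 genes, clear below for Ebp, and overlap for 5, among them Pmvk.

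Across the 17 enzymes, the mean difference from the luciferase mean ranged from -0.047 to 0.041 over the control arrays and from 0.36 to 0.42 over the Ctr9 esiRNA arrays. Arrays of a group shared small offsets. Among the 12 genes that rose, luciferase replicate 1 was the highest control array for 7 and replicate 3 the lowest for 7. In the other group, replicate 1 was the highest for 7 and replicate 3 the lowest for 9. These shared offsets mean that the genes are not independent readings of the 8 arrays.

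Sterol sensing genes moved little, apart from Insig1. Of 5, 2 rose, 1 fell and 2 did not pass, at a median of 0.12. Of all genes, dim ones included, 15.8% were called higher and 15.0% lower. As bright genes were called more often, these counts do not set the list apart. Insig1, itself a classic SREBP target that retains Scap, read 8.44, 8.36, 8.09 and 8.16 with luciferase esiRNA and 9.13, 8.76, 8.70 and 8.75 with Ctr9 esiRNA. Replicate 1 of the Ctr9 esiRNA arrays stood above the other 3, and the rise was 0.57 (SE 0.108, 1.48-fold, limma adjusted p = 0.0033). Without that array it was 0.47 (limma adjusted p = 0.00508). Insig2, its paralogue, read 8.49, 8.47, 8.50 and 8.46 with luciferase esiRNA and 8.26, 8.27, 8.32 and 8.31 with Ctr9 esiRNA. The groups were tight and separate, and it fell by 0.19 (SE 0.042, limma adjusted p = 0.00738). The other Insig2 probe sets differed by -0.09 and 0.03 without passing, and the call ended on the mean of all 3 (-0.08, limma adjusted p = 0.119). Scap rose by 0.21 (SE 0.043) on its bright probe set, and this call ended on the mean with its dim one (0.081, limma adjusted p = 0.260).

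The genes of the SREBPs depended on the probe set. Srebf1 differed by 0.12 (95% interval -0.01 to 0.25) and did not pass. For Srebf2 the brightest probe set differed by 0.12 (SE 0.057, limma adjusted p = 0.158), while the second, at 9.21 with luciferase esiRNA and so nearly as bright, rose by 0.39 (SE 0.051, limma adjusted p = 0.000294). The mean of the pair rose by 0.26 (limma adjusted p = 0.00139). SREBP activity depends on cleavage of the protein, which arrays do not measure.

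Of 5 sterol transport genes, 1 rose, 1 fell and 3 did not pass. Beside them stand 15.8% of all genes called higher and 15.0% lower, dim ones included. These counts do not set the list apart either. Stard4, which carries cholesterol between membranes and is an SREBP target, read 9.01, 9.02, 8.84 and 8.85 with luciferase esiRNA and 9.26, 9.27, 9.22 and 9.40 with Ctr9 esiRNA. All Ctr9 esiRNA values were higher, by 0.36 on average (SE 0.062, limma adjusted p = 0.00185), and the other Stard4 probe sets rose by 0.54 and 0.33. Abca1, which loads cholesterol onto apolipoproteins outside the cell, read 8.90, 9.04, 8.97 and 8.95 with luciferase esiRNA and 7.81, 7.73, 7.65 and 7.81 with Ctr9 esiRNA. More than a whole log2 unit separated the groups, and Abca1 fell by 1.21 (SE 0.054, limma adjusted p = 3.25e-07), which is to say that its signal fell by 56.9%. Both dimmer Abca1 probe sets fell too, by 0.86 and 0.91. Abcg1, an exporter to lipoprotein particles and likewise an LXR target, differed by -0.03 (95% interval -0.15 to 0.09), and its second probe set by -0.05. Npc1 and Npc2 pass cholesterol out of lysosomes. Npc1 differed by -0.11 (-0.23 to 0.01) and Npc2 by 0.02 (-0.08 to 0.12), and neither passed.

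Fatty acid genes were called in 7 of 9 cases and went both ways. Of all genes, dim ones included, 30.8% were called in either direction. The median log2 difference was 0.25. Among the enzymes that supply acetyl-CoA, Acly, which splits citrate, differed by 0.01 (95% interval -0.09 to 0.11), and none of its 6 probe sets passed. Acss2, which makes acetyl-CoA from acetate and is a known SREBP target, read 8.41, 8.55, 8.30 and 8.52 with luciferase esiRNA and 7.83, 7.85, 7.93 and 7.82 with Ctr9 esiRNA. It was lower in every Ctr9 esiRNA array and fell by 0.59 (SE 0.063, limma adjusted p = 8.99e-05), with a fall of 0.53 on its second probe set and a difference of -0.13 on the remaining dim one, which did not pass.

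Of the 3 genes that build the chain, 1 rose, 1 fell and 1 did not pass. Acaca, acetyl-CoA carboxylase, read 9.31, 9.38, 9.41 and 9.41 with luciferase esiRNA and 9.49, 9.51, 9.52 and 9.51 with Ctr9 esiRNA. The groups did not overlap, yet the difference of 0.13 (SE 0.044) just missed the threshold (limma adjusted p = 0.0582). It passed with other scalings (0.0348 to 0.0450), among probe sets above the median signal (0.0145) and with a trended robust prior (0.0169). It did not pass with the replicate number as a block (0.121), on the mean of its probe sets (0.073, limma adjusted p = 0.241) or with any single array left out (0.0661 to 0.141). Fasn, fatty acid synthase, rose by 0.25 (SE 0.054, limma adjusted p = 0.00654), a call that ended when luciferase replicates 1 and 2 were left out (0.0568). Elovl6, which lengthens palmitate to stearate, read 11.22, 11.31, 11.29 and 11.34 with luciferase esiRNA and 10.78, 10.78, 10.78 and 10.76 with Ctr9 esiRNA. Its Ctr9 esiRNA values were nearly identical and all below the controls, and it fell by 0.52 (SE 0.044, limma adjusted p = 1.91e-05). Its other probe sets fell by 0.45 and 0.21.

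The 4 desaturase genes all rose. Scd2, the main stearoyl-CoA desaturase of embryonic tissue and brain, read 11.22, 11.20, 11.10 and 11.27 with luciferase esiRNA and 12.18, 11.94, 11.81 and 11.98 with Ctr9 esiRNA. No values overlapped, and it rose by 0.78 (SE 0.077, limma adjusted p = 5.13e-05), with 0.71 and 0.78 on its other probe sets. Scd1, its close paralogue, rose by 0.46 (SE 0.063, limma adjusted p = 0.000447) and by 0.90 on its second probe set. The 2 genes are similar in sequence, and cross-hybridisation between their probe sets was not tested. Fads2, which starts the desaturation of essential fatty acids, read 8.48, 8.33, 8.24 and 8.23 with luciferase esiRNA and 9.06, 9.10, 8.84 and 8.97 with Ctr9 esiRNA. It rose by 0.68 (SE 0.074, limma adjusted p = 0.000104), and its other probe sets, by 0.54 and 0.60. Fads1, the next desaturase of that route, rose from 9.03 ± 0.041 to 9.35 ± 0.046 (SD, n = 4 each), or by 0.33, and its dim probe set differed by -0.06.

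**Figure D2:**
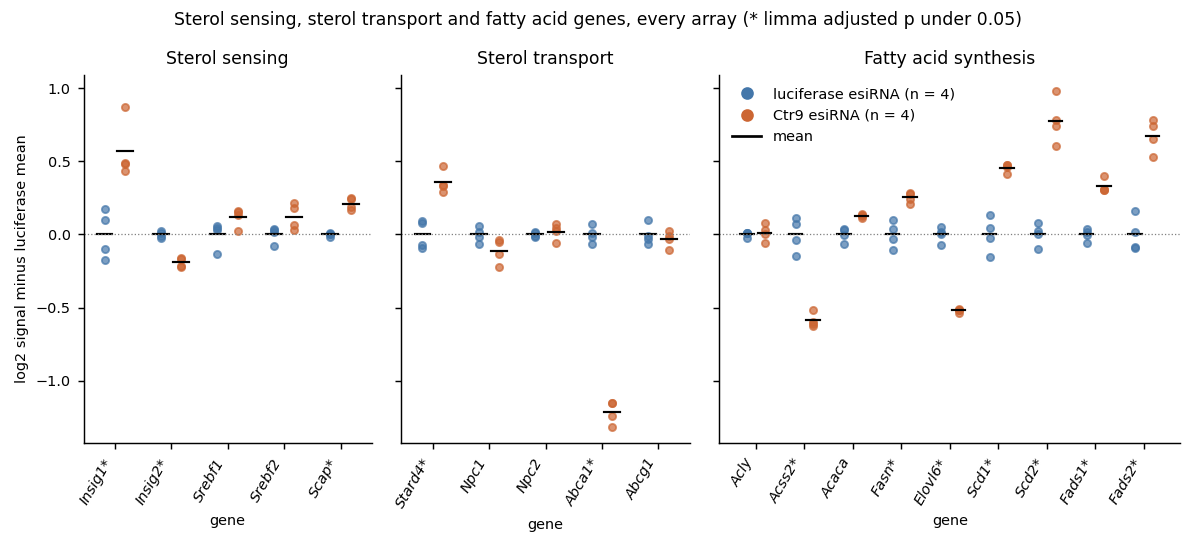
Log2 signal of 5 sterol sensing, 5 sterol transport and 9 fatty acid genes in every array, less the mean of the luciferase arrays of that gene (y axis), with 1 point per array and a bar for each group mean. Abca1, Acss2 and Elovl6 lie below the controls in all 4 Ctr9 esiRNA arrays, and Scd2, Fads2 and Insig1 lie above them.

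Several probe sets were present for 26 of the 36 genes, which shows how far a call rests on 1 of them. The 36 genes had 85 probe sets, of which 38 rose and 11 fell, against 11.8% and 13.1% of all probe sets, dim ones included. Of 19 called genes with several probe sets, 12 had another that passed in the same direction, and Lss had one that passed the other way. Among the other probe sets of those 19 genes, 18 of 24 with a mean above the median of all probe sets gave the same call, as did 2 of 10 below it. Averaging all probe sets of a gene shrank Cyp51 to 0.48, Fdps to 0.25, Fdft1 to 0.17, Msmo1 to 0.32, Sc5d to 0.28 and Fads1 to 0.14, all of which still passed (limma adjusted p from 7.63e-05 to 0.0396). Among the 7 genes that did not pass and had several, Mvd, Hsd17b7 and Srebf2 had another probe set that rose.

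**Figure D3:**
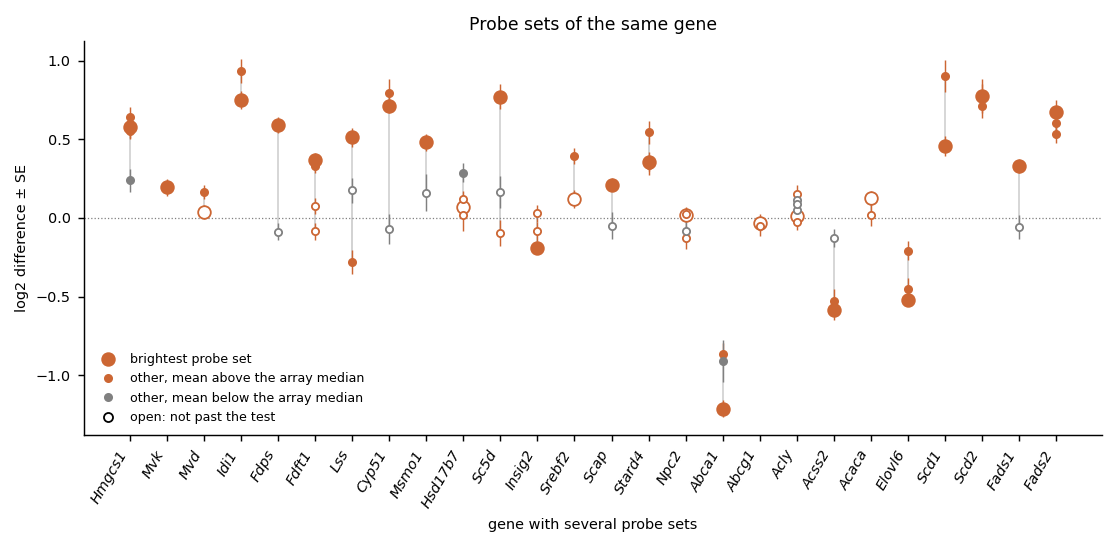
Log2 difference, Ctr9 minus luciferase esiRNA, with SE bars (y axis), for every probe set of the 26 genes with several (x axis). Large points are the brightest probe set, orange marks a mean above the median of all probe sets, grey a mean below it, and open points did not pass. Hmgcs1, Abca1, Scd2, Fads2 and Elovl6 keep 1 direction throughout. Lss alone passed in both directions, and probe sets of several other genes, such as Cyp51, Fdps and Sc5d, differ in sign without passing both ways.

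Other genes of lipid metabolism were read from lists drawn up by pathway. Each was read by its brightest probe set alone, and where a gene had others, they were not compared. The counts of these lists stand against the 15.8% of all genes called higher and 15.0% called lower, dim ones included. Of 19 measured genes of isoprenoid branches, sterol sensing and lipoprotein uptake, 3 rose and 5 fell, at a median of 0.027. The largest rises were those of Lrp8, a lipoprotein receptor (0.30, SE 0.073), and Lbr, a nuclear envelope protein with sterol reductase activity (0.24, SE 0.043). Vldlr, another lipoprotein receptor, fell by 0.38 (SE 0.086) and Ggps1, which makes geranylgeranyl diphosphate, by 0.28 (SE 0.065). The larger family of fatty acid activation, elongation and storage genes gave 7 higher and 5 lower of 21, at a median of 0.084. Acsl4 and Acsl5, which join fatty acids to coenzyme A, rose by 1.08 (SE 0.066) and 0.88 (SE 0.053), while Elovl7, an elongase, fell by 0.42 (SE 0.103) and Lpin1, a phosphatidate phosphatase, by 0.35 (SE 0.072).

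Genes of fatty acid oxidation, the opposite route, were mostly lower, 7 of 12 falling and 1 rising, and their median was -0.23. Ech1, an isomerase of the oxidation of unsaturated chains, went from 10.34 ± 0.028 to 9.39 ± 0.085 (SD, n = 4 each) and fell by 0.94. Slc25a20, the mitochondrial carnitine carrier, fell by 0.77 (SE 0.061). Acadl, a long-chain acyl-CoA dehydrogenase, was the one that rose, by 0.62 (SE 0.047, limma adjusted p = 8.57e-06). No test compared these lists with one another.

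**Figure D4:**
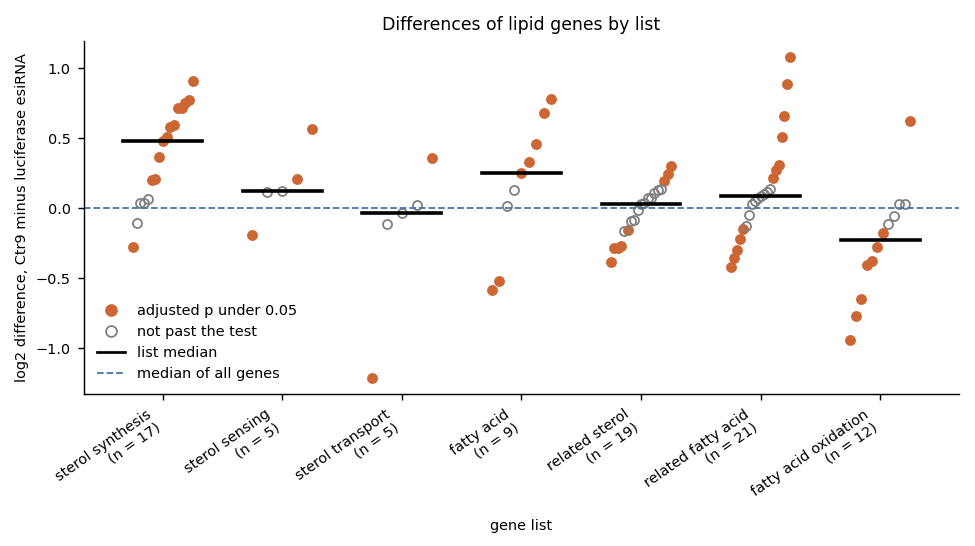
Log2 difference, Ctr9 minus luciferase esiRNA (y axis), of each measured gene in 7 lists (x axis), filled where limma's adjusted p is under 0.05 and open otherwise. Bars are list medians, from 0.48 for sterol synthesis to -0.23 for fatty acid oxidation, and the dashed line is the median of all genes.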

How the data were processed

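RNA of 8 samples, 4 per group, was measured on one-colour Affymetrix arrays. The authors deposited log2 signals per probe set, and the submitters' processing notes name GCOS 1.4 and RMA without settings. RMA equalises the arrays and compresses differences of low signals, so a shift of the whole transcriptome is invisible. The number of arrays limits the precision.

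Values were used as deposited. Of 45101 probe sets, 64 controls were left out, and 456 empty values, at most 1 per probe set, were skipped by the fit. Of the 45037 tested, 34945 have 1 symbol, 932 several and 9160 none in the platform annotation. Symbols of 34741 were updated by Entrez identifier (GRCm38.p6). Groups were compared with limma 3.58.1 in R 4.3.3 (lmFit, eBayes) with Benjamini-Hochberg adjustment over all 45037, and SE is the moderated one. Each gene was read by its brightest 1-symbol probe set, and all members are named. From each related list, up to 2 called genes per direction with the largest differences are named. The members and lists were chosen with earlier results of these data known.

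Tested on simulated arrays of this comparison with 45037 probe sets, the fit found 98% of changes of 1 log2 unit. It found 82% at 0.5, 34% at 0.3 and 4% at 0.2, with 10 false among 119 calls. The data gave 11209 calls, so the adjusted threshold was stricter in the simulation than in the data. The shares found are therefore not the power of this comparison, where differences near 0.2 were called, as for Mvk and Scap. For means over probe sets, an empty value took its group's mean. Alternatives were other scalings, a filter on dim probe sets, a block for the replicate number, array weights, another prior, left-out arrays, a stricter threshold and averaged probe sets. Figures were drawn with matplotlib 3.10.9.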

Additional observations from a re-analysis of the deposited data

Results flagged for a closer look

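Among 72 groups of 4 values, 7 held an array far from the other 3 (a gap above Dixon's critical share of the group's range), where chance gives about 1 in 20 groups. Insig1 read 9.13 in Ctr9 esiRNA replicate 1, against 8.70 to 8.76 in the others. Tm7sf2 read 7.71 in the same array, against 7.86 to 7.88. Srebf1 was low in replicate 3 of both groups, at 9.83 with luciferase esiRNA (the others up to 10.02) and 9.99 with Ctr9 esiRNA (10.10 to 10.12). In luciferase replicate 2, Srebf2 read 9.33 (9.43 to 9.45) and Acly 12.49 (12.53). Fads1 read 9.42 in Ctr9 esiRNA replicate 2, against 9.33 in the others. Without the array in question, the calls of these 6 genes did not change.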

How the results depend on the processing

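Of 648 values of the 36 genes under 18 alternatives, 625 kept their direction and side of the threshold, 12 lost a call, 7 gained one and 4 changed sign. Of the 25 called genes, 20 kept their call throughout, and the others were Mvk, Pmvk, Insig2, Scap and Fasn. Mvk lost its call with luciferase replicates 1 and 2 left out (limma adjusted p = 0.0735). The sign changes were in genes near 0 that never passed: Npc2 on the mean of its probe sets (-0.042), Abcg1 without luciferase replicate 1 (0.0031; -0.053 to 0.0031 over the 8 single arrays left out) or without replicates 1 and 2 (0.0059), and Acly without Ctr9 esiRNA replicate 2 (-0.0090; -0.0090 to 0.035). The count of sterol synthesis enzymes called higher ran from 10 to 13. At an adjusted p under 0.01, 7000 probe sets were called in place of 11209.

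Over all probe sets, the deviations of same-numbered arrays from their group means had correlations of -0.078 to 0.063, too low to take the numbers as pairs. Over the 17 sterol enzymes, replicate 1 had the highest mean and replicate 3 the lowest in both groups. With it as a block, 9771 probe sets were called, and of the 36 genes Pmvk alone lost its call. Signals below the median of all probe sets limit the dimmer probe sets, whose small differences are compressed.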
